A study of Mus musculus with 6 samples.

Results

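The 9 liver identity transcription factor genes described here are Hnf4a, Nr2f6, Foxa1, Foxa2, Foxa3, Cebpa, Onecut1, Prox1 and Hhex. They were taken by name, not by any measured value, out of 18194 genes with a probe set of 1 gene symbol. Each gene was represented by its probe set with the highest mean signal over the 6 arrays, and its other probe sets served as a check. All 9 had a signal above the floor of 221 on all 6 arrays, and so belong to the 13989 measured genes, those above the floor on at least 1 array. The floor is the 50th percentile of all values, and lower signals were raised to it before the log2 transformation.

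Livers of male C57BL6/J mice, an inbred strain, were measured on Affymetrix Mouse Genome 430 2.0 arrays, with 1 array for each of 6 groups and RNA pooled from 3 to 4 livers on each array. Mice were 6 to 8 weeks old at the start. In the 2-month study mice ate chow, a fast-food diet (FFD) alone, or FFD with canertinib in the food, where the daily dose was estimated as 80 mg/kg. The 5-month groups were chow, the fast-food diet with PBS vehicle injections, and the fast-food diet with canertinib injected into the peritoneum at 80 mg/kg. Each of the last 5 weeks had 5 injection days, and no injection is named for the chow mice. By weight FFD was 21% fat, 34% sucrose and 0.2% cholesterol, and the mice drank water with 18.9 g/L glucose and 23.1 g/L fructose. Canertinib is an irreversible inhibitor of ERBB receptor kinases, among them EGFR.

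Hepatocytes keep their identity through a small set of transcription factors that bind the same regulatory regions and regulate one another. HNF4A and NR2F6 are nuclear receptors, FOXA1, FOXA2 and FOXA3 are forkhead proteins that open chromatin, CEBPA is a basic leucine zipper protein, and ONECUT1 (HNF6), PROX1 and HHEX are homeodomain proteins. Together they regulate genes for plasma proteins, clotting factors, bile acid synthesis and the urea cycle, and several act first in the embryo, where HHEX and PROX1 are needed for the liver bud to grow.

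With 1 array per group, a difference within a study has no replicate check. Between the chow arrays of the 2 studies the log2 difference had an SD of 0.40 over all measured genes, and this serves as the yardstick below. A limma fit over all 6 arrays, with terms for treatment and study, takes the studies as repeats although drug route and duration differed between them, and has 2 residual degrees of freedom. The labelled tissue was checked on hepatocyte markers, of which 13 of 14 listed were measured, with a summed signal between 487531 and 898896. Krt7 and Cftr of the bile duct list were at the floor on all arrays. In bulk liver RNA, fewer cells of a type and less RNA per cell cannot be told apart.

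The genes split into groups with different courses. Hnf4a, Foxa3 and Onecut1 were lower on the fast-food diet than on chow and higher with canertinib than on the diet alone, in both studies. Foxa1 was lower on the diet and lowest with the drug. Foxa2, Cebpa and Nr2f6 differed little among the 6 arrays, and Hhex and Prox1 took a different course in each study. No member passed the limma test at an adjusted p under 0.05 in any comparison. The spread from the lowest to the highest array was at least 1 log2 unit for 5 of the 9 members and for 24.8% of measured genes, with a median of 1.03 for the members and 0.71 for the measured genes.

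**Figure D1:**
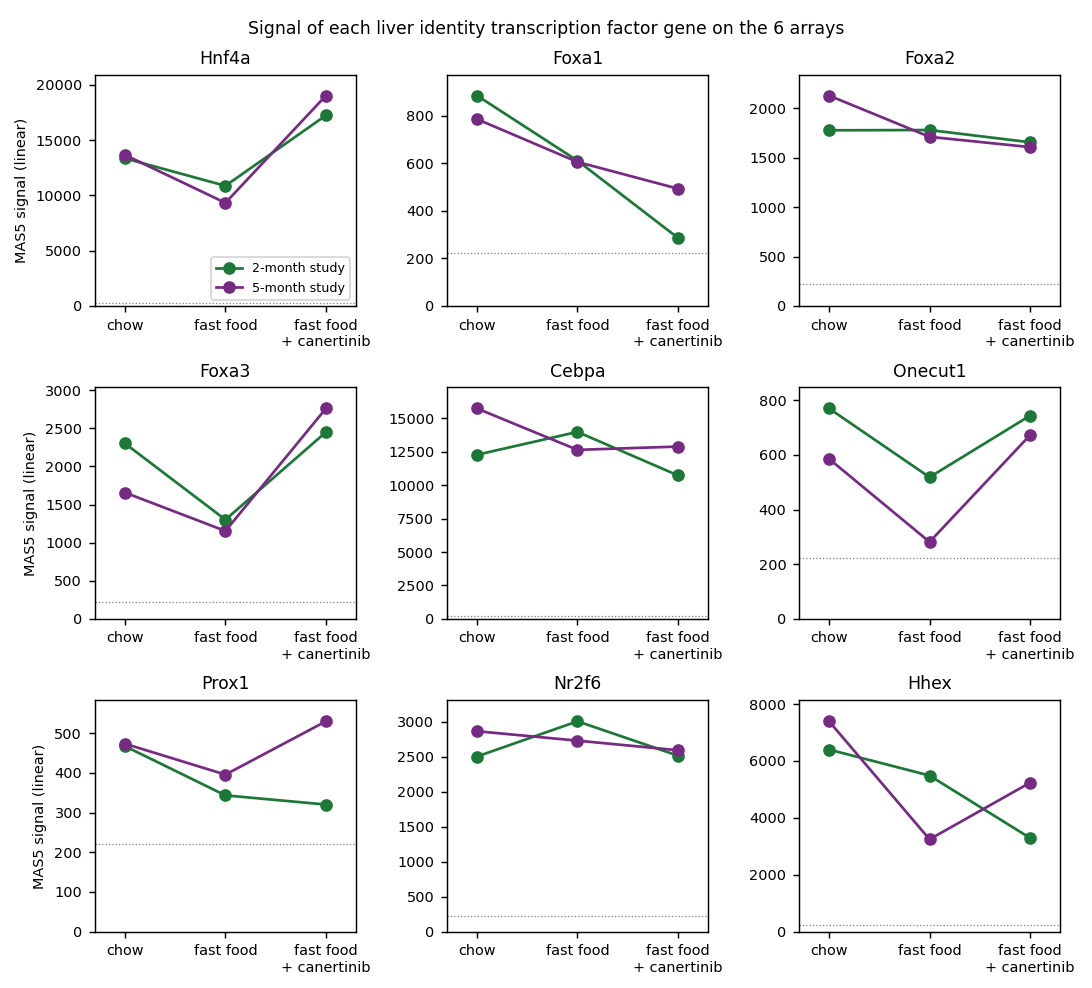
MAS5 signal on a linear scale (y axis from 0) of the probe set used for each gene, against treatment (x axis), for the 2-month study in green and the 5-month study in purple, with 1 array per point and the floor of 221 as a dotted line. Hnf4a, Foxa3 and Onecut1 are lowest on the fast-food array of each study, and Foxa1 is lowest on the canertinib array of each study.

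Of the nuclear receptors, Hnf4a, the master regulator of the hepatocyte programme, had signals of 13346 on chow, 10863 on the fast-food diet and 17235 with canertinib at 2 months. The 5-month signals were 13660, 9323 and 19025 in the same order. The fast-food arrays of both studies were the lowest, the canertinib arrays the highest, and the chow arrays lay between them and within 0.03 log2 units of each other. With the drug, Hnf4a differed from the diet alone by 0.67 log2 units at 2 months and by 1.03 at 5 months, while 8.69% and 2.04% of measured genes were as high or higher. The limma estimate was 0.85 ± 0.17 (SE), with a 95% interval from 0.42 to 1.28 and an adjusted p of 0.124. The diet difference was -0.30 and -0.55, with a limma estimate of -0.42 ± 0.17 and an adjusted p of 0.514.

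Hnf4a has 4 probe sets, and all 4 were higher with canertinib than on the diet at both times. Their log2 differences ran from 0.27 to 0.97 at 2 months and from 0.25 to 1.03 at 5 months, so the probe set used gave the largest 5-month value. On the diet all 4 were lower than on chow at 2 months and 3 of 4 at 5 months. The exception was the dimmest probe set, which read 0.29 higher on the diet at 5 months and was 1.26 log2 units lower on the 5-month than on the 2-month chow array. Relative to chow, the drug-treated livers had Hnf4a differences of 0.37 and 0.48, and 3 of 4 probe sets were higher at 5 months.

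**Figure D2:**
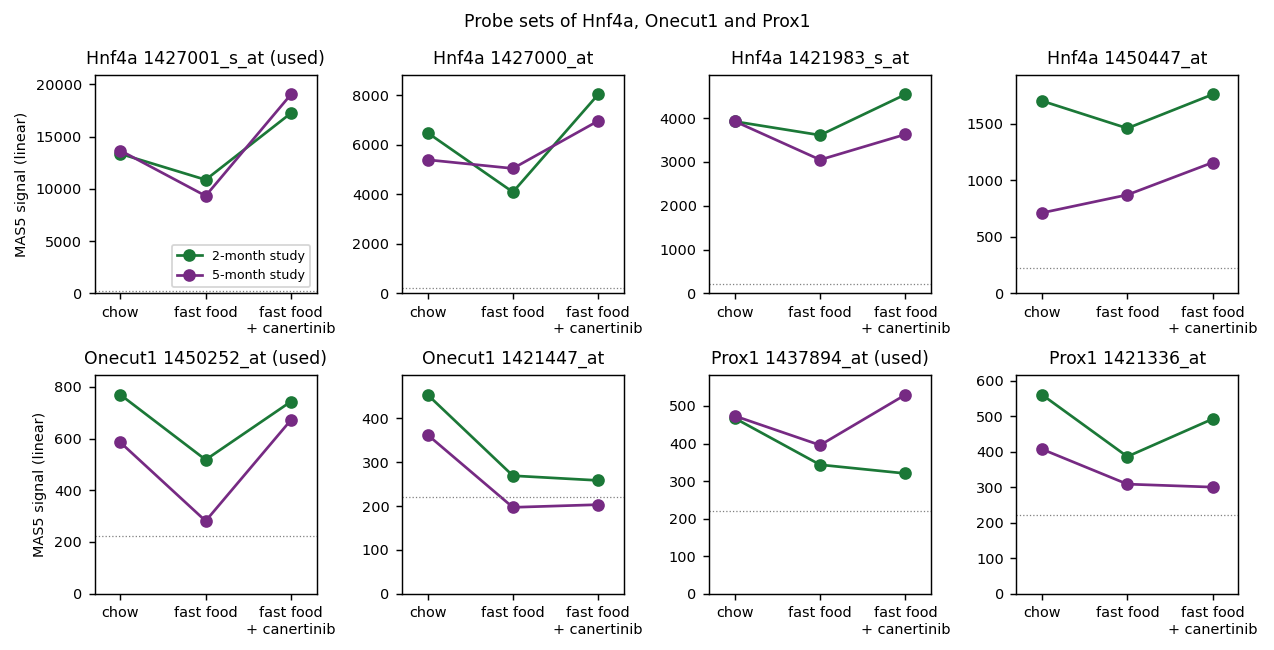
MAS5 signal on a linear scale (y axis from 0) against treatment (x axis) for each probe set of Hnf4a, Onecut1 and Prox1 that was above the floor (dotted line) on at least 1 array, with 1 array per point, green for 2 months and purple for 5 months. All 4 Hnf4a probe sets read higher with canertinib than on the fast-food diet in each study, whereas the second Onecut1 probe set is low on the diet with and without the drug.

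Nr2f6, an orphan receptor of the COUP-TF family, was the steadiest member. Its signals were 2500, 3003 and 2513 on chow, diet and diet with canertinib at 2 months, then 2861, 2727 and 2590 at 5 months. All 6 arrays lay within a log2 range of 0.26, smaller than the yardstick, and 7.58% of measured genes had a smaller range. A second, dim probe set was above the floor on 2 arrays only, with 315 on 5-month chow and 374 on the 5-month canertinib array.

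Among the forkhead genes, Foxa3, which is expressed in liver and gut, had signals of 2302 on chow, 1301 on the diet and 2451 with the drug at 2 months. At 5 months it had 1657, 1153 and 2761. Both fast-food arrays were below all other arrays and both canertinib arrays above them. Canertinib on the diet differed from the diet alone by 0.91 and 1.26, with 4.56% and 1.17% of measured genes as high or higher. The limma estimate was 1.09 ± 0.19 (SE), interval 0.62 to 1.55, with an adjusted p of 0.0874, the lowest of any member in any comparison. The diet values were -0.82 and -0.52, with an estimate of -0.67 ± 0.19 and an adjusted p of 0.355. The chow arrays themselves differed by -0.47, lower at 5 months, which is beyond the yardstick and close to the 5-month diet difference. Foxa3 has 1 probe set, so no second reading exists.

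Foxa1 went the other way from Foxa3 with the drug. It had signals of 885 on chow, 611 on the diet and 286 with canertinib at 2 months, then 786, 606 and 493 at 5 months. In each study the order was chow, diet, then diet with canertinib, and no array of a treatment overlapped another treatment. The log2 differences of drug-treated livers from chow were -1.63 at 2 months and -0.67 at 5 months, and 0.69% and 7.42% of measured genes were as low or lower. The limma estimate against chow was -1.15 ± 0.31 (SE), interval -1.92 to -0.38, with an adjusted p of 0.177. Against the diet alone the drug values were -1.09 and -0.30, the latter inside the yardstick. The 2-month canertinib signal is close to the floor of 221, and Foxa1 has 1 probe set.

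Foxa2, which controls bile acid transport and the response to fasting, stayed nearly flat. Signals were 1779, 1782 and 1658 on chow, diet and diet with canertinib at 2 months, then 2131, 1713 and 1609 at 5 months. The highest value was that of 5-month chow, and the drug differed from the diet by -0.10 and -0.09. The limma estimate for the drug on the diet was -0.10, with an interval from -0.47 to 0.27, so a change of the size estimated for Foxa3 lies outside it. The forkhead genes therefore gave a higher, a lower and a near-unchanged signal with the drug on the diet. No test of the difference between these genes was made.

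Cebpa, which promotes hepatocyte maturation and restrains cell division, had signals of 12278, 13989 and 10730 at 2 months, then 15745, 12644 and 12890 at 5 months, on chow, diet and diet with canertinib. The treatments overlapped, and no order held in both studies. The diet differed from chow by 0.19 and -0.32 and the drug from the diet by -0.38 and 0.03, all within the yardstick. The limma interval for the drug on the diet ran from -0.65 to 0.30.

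Of the homeodomain genes, Onecut1 had signals of 770, 518 and 744 on chow, diet and diet with canertinib at 2 months, then 585, 281 and 672 at 5 months. The fast-food arrays were the lowest of all 6 and those of chow and drug overlapped. The diet difference was -0.57 and -1.06, with a limma estimate of -0.81 ± 0.27 (SE) and an adjusted p of 0.43. The drug on the diet gave 0.52 and 1.26, with an estimate of 0.89 ± 0.27 and an adjusted p of 0.234. The second Onecut1 probe set had 454, 269 and 258 at 2 months, then 363, 197 and 203 at 5 months. It was also lower on the diet, by 0.75 and by at least 0.71, but read no higher with the drug, at -0.06 at 2 months and below the floor on both 5-month arrays. The higher Onecut1 signal with canertinib thus rests on 1 of 2 probe sets.

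Hhex had signals of 6399, 5486 and 3293 on chow, diet and diet with canertinib at 2 months, then 7392, 3245 and 5235 at 5 months. Both chow arrays were the highest, but the lowest array was canertinib at 2 months and the diet at 5 months. The diet differed from chow by -0.22 and -1.19, and 1.01% of measured genes were as low or lower at 5 months. The drug on the diet gave -0.74 at 2 months and 0.69 at 5 months, opposite in sign, and the difference between the studies was not tested. Against chow the drug-treated livers had -0.96 and -0.50, with a limma estimate of -0.73 ± 0.33 (SE) and an adjusted p of 0.372. HHEX is also made by endothelial cells, whose 8 markers had summed signals of 8646, 11051 and 11646 at 2 months, then 8144, 9975 and 9420 at 5 months, in the same order of groups. These sums were lowest on the chow arrays. Single markers differed, with Lyve1 at 1.58 and Clec4g at -0.04 for the diet against chow at 5 months.

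Prox1 was dim, with signals of 467, 343 and 320 on chow, diet and diet with canertinib at 2 months, then 474, 396 and 530 at 5 months. The diet values of -0.44 and -0.26 had the same sign in the second Prox1 probe set, with -0.54 and -0.40. The drug values of -0.10 and 0.42 had the opposite sign in that probe set, with 0.35 and -0.04, and the third probe set was at the floor on all arrays. Prox1 also marks lymphatic endothelium, and the 4 measured lymphatic markers had summed signals of 4824, 4811 and 6020 at 2 months, then 4272, 6114 and 5161 at 5 months. These sums do not stand for lymphatic endothelium alone. Reln, the brightest of the 4 on every array, is also in the stellate cell list, and Lyve1 is also in the endothelial list. Pdpn stayed between 392 and 452. The part of endothelial cells in the Hhex and Prox1 signals was not tested.

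**Figure D3:**
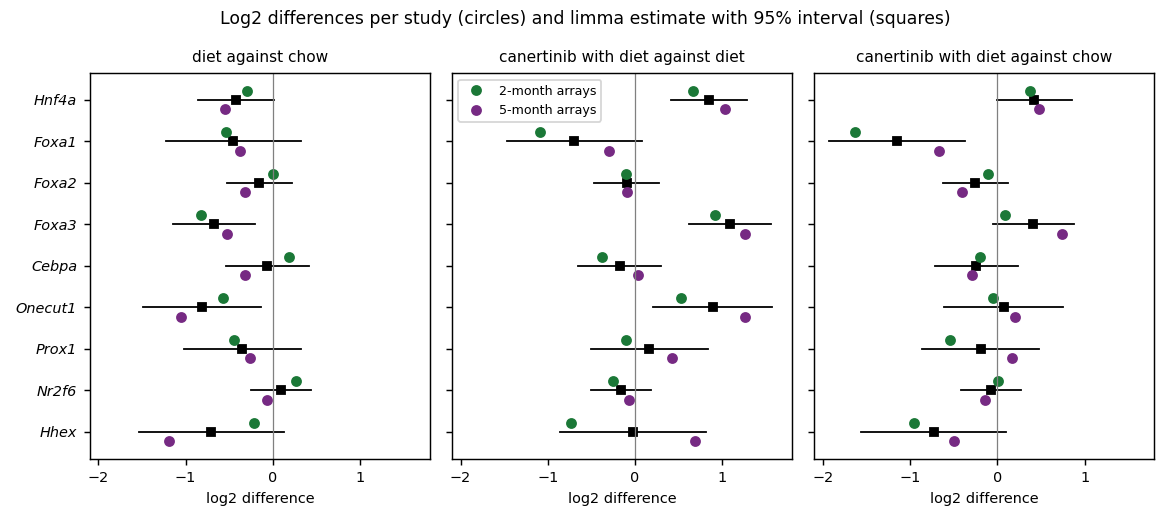
Log2 difference (x axis) of each gene (y axis) for diet against chow, canertinib with diet against diet, and canertinib with diet against chow, with the 2-month arrays as green circles, the 5-month arrays as purple circles, and the limma estimate over both studies with its 95% interval as a black square and line. For canertinib with diet against diet the intervals of Hnf4a, Foxa3 and Onecut1 lie above 0 before adjustment for the genes tested, and those of the other 6 genes span 0.

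Counted at 2-fold, 0 members were higher and 0 lower on the diet than on chow at 2 months, where 1.98% and 1.55% of measured genes were. At 5 months the count was 0 members higher, beside 2.72% of measured genes, and 2 lower, Onecut1 and Hhex, beside 1.83%. At 1.5-fold the lower members were Foxa3 at 2 months, beside 7.01% of measured genes, and Onecut1 and Hhex at 5 months, beside 7.57%. With the floor at the 60th percentile, or with the mean over probe sets, 1 member was at least 2-fold lower. All 9 members were lower in any amount on the 5-month diet array than on the 5-month chow array, as were 49.1% of measured genes, and 6 of 9 were lower at 2 months beside 46.6%. The median member difference on the diet was -0.30 and -0.38, and the median over all measured genes was 0 in every comparison. In limma no member passed at an adjusted p under 0.05, as did 0.0286% of measured genes. At an unadjusted p under 0.05 there were 2, Foxa3 and Onecut1, beside 9.87% of measured genes.

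With canertinib on the diet, the 2-month arrays had 0 members higher by 2-fold, beside 3.55% of measured genes, and 1 lower, Foxa1, beside 3.26%. At 5 months 3 members were at least 2-fold higher, namely Hnf4a, Foxa3 and Onecut1, and 0 were lower, beside 2.19% and 2.73%. With the mean over all probe sets of a gene 1 member was past 2-fold upward in the 5-month study, and with the floor at the 60th percentile 0 were at least 2-fold lower at 2 months. At 1.5-fold, Hnf4a and Foxa3 were higher and Foxa1 and Hhex lower at 2 months, beside 10.9% and 10.6% of measured genes, and Hnf4a, Foxa3, Onecut1 and Hhex were higher at 5 months, beside 8.22%. In limma 0 members passed, beside 0.715% of measured genes, and 3 had an unadjusted p under 0.05, Hnf4a, Foxa3 and Onecut1, beside 14.8%. When the limma fit was limited to the 9874 genes above the floor on all 6 arrays, Foxa3 and Hnf4a passed with adjusted p of 0.0177 and 0.0423. That fit called 3.89% of its genes. Over all 14 alternatives the adjusted p of Foxa3 ran from 0.0177 to 0.544 and that of Hnf4a from 0.0423 to 0.544. The diet and the drug comparisons share the fast-food array of each study, so a low reading on that array lowers the first and raises the second.

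Drug-treated livers were also set against chow, which does not use the fast-food arrays. At 2 months no member was higher by 2-fold, beside 3.80% of measured genes, and 1 was lower, Foxa1, beside 2.74%, and at 5 months there were 0 and 0, beside 2.82% and 2.72%. At 1.5-fold, Foxa1 and Hhex were lower at 2 months, beside 10.1%, and at 5 months Foxa3 was higher, beside 8.92%, and Foxa1 lower, beside 1402 of the 13989 measured genes. Hnf4a and Foxa3 were higher than on chow in both studies, by 0.37 and 0.48 and by 0.09 and 0.74 (Hnf4a at 2 months by 0.14 after quantile normalization), with adjusted p of 0.328 and 0.368 in limma. Onecut1 differed from chow by -0.05 and 0.20 in the probe set used, but by -0.81 and by at least 0.71 downward in the second probe set. With the mean over probe sets the limma estimate was -0.34, against 0.07 for the probe set used. In limma 0 members passed, beside 0.765% of measured genes, and 1, Foxa1, had an unadjusted p under 0.05, beside 15.6%. Between the chow arrays 0 members were at least 2-fold different, beside 2.60% of measured genes.

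**Figure D4:**
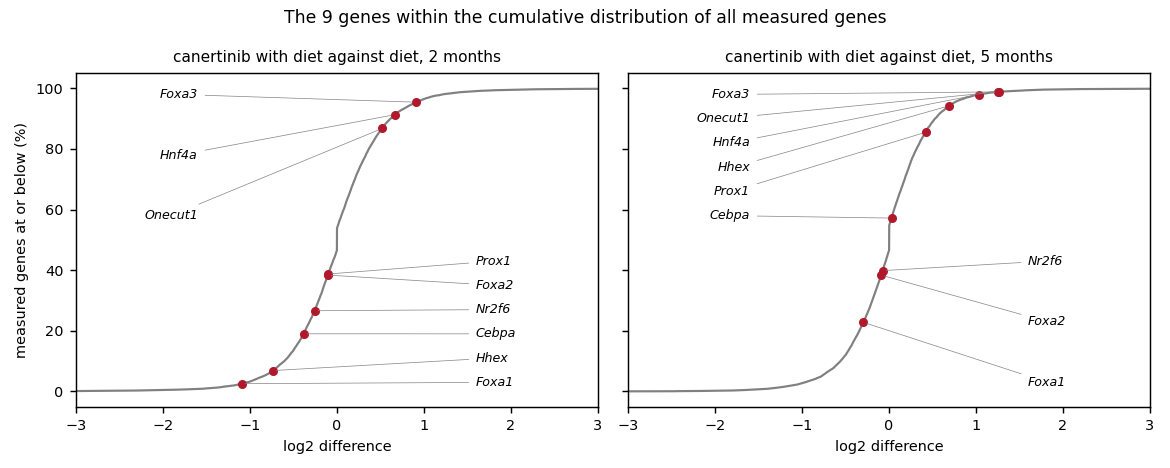
Share of all measured genes at or below a given log2 difference (y axis, percent) against the log2 difference of canertinib with diet against diet (x axis), as a grey line, with the 9 genes as red points, for 2 months on the left and 5 months on the right. Foxa3, Hnf4a and Onecut1 lie highest at both times, with 86.8% to 95.4% of genes at or below them at 2 months and 98.0% to 98.8% at 5 months.

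A measure of RNA quality and the markers of other cell types differed among the groups. On the log2 scale, the 3' actin control probe set exceeded the 5' one by 1.19 and 1.12 on the canertinib arrays, against 0.85 and 0.98 on the diet and 0.94 and 0.85 on chow. The Gapdh control gave -0.20 and -0.14 with canertinib, -0.30 and -0.22 on the diet and -0.18 and -0.09 on chow, and so did not set the canertinib arrays apart. The summed signal of 8 macrophage markers was 9746 and 9924 on chow, 22856 and 24589 on the diet and 27191 and 26366 with the drug. That of 8 stellate cell markers was 13238 and 11225, then 19931 and 26163, then 21384 and 16194. The brightest, Dcn, went from 10336 on the diet to 12831 with the drug at 2 months. Of the 8, however, 5 were lower and 2 higher with the drug than on the diet at that time, beside 46.6% and 46.3% of measured genes. Neutrophil markers, 6 measured of 8 listed, had 2331 and 2844, then 3032 and 2759, then 14809 and 16211, with Camp at the floor on all arrays. Macrophage sums were thus higher than on chow both on the diet and with the drug, and neutrophil sums were highest with the drug. The part of cell composition or RNA quality in the member values was not tested.

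The starts of the genes whose signals moved together are shown here with matches to short motifs known for these factors. The RefSeq tables of build GRCm38.p6 hold 13 start sites for the 9 members, and the 250 bases before each were searched on both strands for CAAAGT (HNF4), TGTTTAC and TGTTTGC (FOXA), TTGCNNAA (CEBP) and ATTGAT (ONECUT). Capitals mark matches, each sequence runs 5′ to 3′ on the gene's strand, and a match is a description of letters and not a bound site. Hnf4a has 2 starts, 40298 bases apart, of which the downstream start is known as the promoter of adult hepatocytes, and which start each probe set reads was not analysed here.
Hnf4a upstream start, chr2:163506607-163506856, plus strand: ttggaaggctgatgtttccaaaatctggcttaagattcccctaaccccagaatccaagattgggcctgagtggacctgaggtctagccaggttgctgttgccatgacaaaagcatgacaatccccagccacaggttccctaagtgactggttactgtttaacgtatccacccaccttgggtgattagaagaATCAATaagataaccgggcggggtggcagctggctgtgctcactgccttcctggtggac
Hnf4a downstream start, chr2:163546905-163547154, plus strand: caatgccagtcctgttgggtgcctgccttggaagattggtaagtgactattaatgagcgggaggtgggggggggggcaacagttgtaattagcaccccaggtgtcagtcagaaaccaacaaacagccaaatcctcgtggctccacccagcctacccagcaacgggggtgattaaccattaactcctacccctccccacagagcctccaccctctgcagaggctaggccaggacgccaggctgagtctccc
Foxa3, chr7:19023540-19023789, minus strand: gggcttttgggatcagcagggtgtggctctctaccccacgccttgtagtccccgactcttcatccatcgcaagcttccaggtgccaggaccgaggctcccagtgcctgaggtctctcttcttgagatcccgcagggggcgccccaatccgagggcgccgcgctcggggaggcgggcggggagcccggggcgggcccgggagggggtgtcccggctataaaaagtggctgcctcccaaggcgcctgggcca
Onecut1, chr9:74861671-74861920, plus strand: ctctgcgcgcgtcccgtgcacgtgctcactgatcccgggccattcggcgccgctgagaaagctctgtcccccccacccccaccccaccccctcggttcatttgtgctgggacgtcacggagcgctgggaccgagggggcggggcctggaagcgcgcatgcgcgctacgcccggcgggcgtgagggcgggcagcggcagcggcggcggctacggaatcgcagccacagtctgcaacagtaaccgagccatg

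The upstream Hnf4a start held 1 ONECUT match, 59 bases before the start, and the downstream start, Foxa3 and Onecut1 held no match to any of the 5 motifs. For Foxa1, whose signal was lowest with the drug, a FOXA and an HNF4 match overlapped, 141 and 136 bases before the start. That stretch lies at chr12:57546232-57546261 on the minus strand.
Foxa1: tactgctttGTAAACAAAGTgagggccagg

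The farthest upstream of 3 Foxa2 starts held an ONECUT match 213 bases before it, at chr2:148047165-148047194 on the minus strand, shown for comparison with Hnf4a.
Foxa2: acaaggcccattATTGATtttttttctcct

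Matches to ATTGAT were in the windows of 2 members, Hnf4a and Foxa2, beside 6.72% of all 32851 windows. CAAAGT was in windows of Foxa1 and Foxa2 beside 12.6%, TGTTTAC in Foxa1 beside 3.17%, TGTTTGC in Prox1 beside 4.30%, and TTGCNNAA in no member beside 9.56%. Member windows were rich in G and C, with 50.8% to 82.4%, and 11 of 13 were above the median of 52.4% over all windows.

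Genes with the course most like a member were taken by the root mean square difference of centred log2 signals over the 6 arrays, among 9865 genes above the floor on all arrays. Hnf4a was nearest to Fam234b, with 0.06, then Fzd2 and Ckap2l, each with 0.07. Fam234b had 1022, 898 and 1478 on chow, diet and diet with canertinib at 2 months, then 1057, 745 and 1445 at 5 months. Foxa3 was nearest to Zmiz2 with 0.10, the clotting gene F13a1 and the plasma protein gene Itih2, each with 0.14. Onecut1 was nearest to Snhg1 with 0.12, then Mknk1 with 0.16 and Rbfa with 0.17.

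Foxa1 was nearest to Ndufb10, a subunit gene of respiratory complex I, with 0.08, then Slc66a2 with 0.12 and the sterol desaturase gene Sc5d with 0.14. Hhex was nearest to Wdr6 with 0.08, then Pdcd4 and Hnf4aos, each with 0.13. Hnf4aos is the antisense gene at the Hnf4a locus. Its signals were 1276, 1221 and 757 on chow, diet and diet with canertinib at 2 months, then 1369, 716 and 959 at 5 months, so it was highest on chow, whereas Hnf4a was highest with canertinib. Among the members the closest pairs were Foxa2 with Cebpa, 0.11, Cebpa with Nr2f6, 0.11, Foxa2 with Nr2f6, 0.11, and Hnf4a with Foxa3, 0.19. Nearness over 6 arrays of 1 sample each is a description, and flat genes are near one another by being flat.

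A wider set of 24 hepatocyte transcription factors, with 21 measured, went in both directions. With canertinib on the diet, 2 of the 2-month differences were upward by 2-fold or more and 1 was downward, against 0 and 0 in the later study, with medians of 0.15 and 0.21. Of all measured genes 3.55% and 3.26% were past 2-fold upward and downward in the first study and 2.19% and 2.73% in the second. The 4 with the largest mean difference were Gata6, a zinc finger factor, with 1.19 and 0.53, Onecut2, the paralogue of Onecut1, with 1.01 and 0.63, Nr2f2, a relative of Nr2f6, with -1.14 and -0.07, and the xenobiotic receptor gene Nr1i3 with 0.67 and 0.48. In limma 0 of the 21 passed for the drug on the diet, and 7 had an unadjusted p under 0.05, 5 of them higher, beside 14.8% of measured genes. On the diet against chow none was lower by 2-fold, and 0 and then 2 were higher, with medians of -0.11 at both times. Of all measured genes 1.55% and 1.83% were at least 2-fold lower and 1.98% and 2.72% higher. None of the 21 passed in limma, and 3 had an unadjusted p under 0.05, beside 9.87% of measured genes.

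Onecut2, unlike Onecut1, was not low on the diet in both studies, with signals of 946, 807 and 1621 at 2 months, then 853, 1016 and 1572 at 5 months, on chow, diet and diet with canertinib. Its canertinib arrays were the highest of the 6. Gata6 had 660, 654 and 1491, then 534, 686 and 988, and its canertinib arrays were also the highest of the 6.

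Known targets of HNF4A differed with the drug in the direction of Hnf4a for most members and in the opposite direction for a few. The list and its members were chosen with earlier results of these data known, so their direction is not independent evidence. Of 21 measured targets, 17 were higher and 4 lower with canertinib on the diet at each time, with 6 and then 7 past 2-fold upward, 1 past 2-fold downward in each study, and medians of 0.63 and 0.62. Of all measured genes 46.3% and 45.3% were higher, 3.55% and 2.19% past 2-fold upward, and 3.26% and 2.73% past 2-fold downward. In limma 4 passed, all higher, beside 0.715% of measured genes: the clotting factor genes F7, with 1.51 and 1.48 in the 2 studies and an adjusted p of 0.0192, and F10, with an estimate of 1.62 ± 0.18 (SE) and 0.036, the lipoprotein gene Apom, with 1.62 ± 0.15 and 0.023, and Cyp7a1, the rate-limiting enzyme of bile acid synthesis, with 1.42 ± 0.17 and 0.0419. None of the 4 passed without the variance trend or with the mean over probe sets, where 0.186% and 0.0499% of all genes passed. Fits with 1 array left out kept 1 residual degree of freedom, too few to decide these calls.

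Cyp8b1, the sterol hydroxylase that sets the share of cholic acid, had the largest difference of the 21, and a downward one, with signals of 10886, 11591 and 905 on chow, diet and diet with canertinib at 2 months, then 14191, 8465 and 2135 at 5 months. Its log2 differences with the drug on the diet were -3.68 and -1.99. F10 had signals of 8115, 6268 and 20473 at 2 months, then 8840, 5272 and 15308 at 5 months. On the diet against chow 20 of the 21 targets were lower at 5 months and 9 at 2 months, with medians of -0.46 and 0.06 (0.06 became -0.11 after quantile normalization), beside 49.1% and 46.6% of measured genes. The low 5-month course was not particular to this list. At 5 months 13 of 13 hepatocyte markers were lower, median -0.36, and 12 of 14 FOXA and CEBPA targets, median -0.34. At 2 months 4 and 7 were lower. The lists share genes, so their counts are not separate readings. Alb, Cps1, Ass1 and Tdo2 are both hepatocyte markers and FOXA and CEBPA targets, Tat is in both target lists, and Ttr is in all of these lists. None of the 21 HNF4A targets passed in limma on the diet, and 8 had an unadjusted p under 0.05, all lower, beside 9.87% of measured genes in either direction. Against chow, 3 targets passed with canertinib, beside 0.765% of measured genes: F7 was higher, with 1.14 and an adjusted p of 0.0306, and Cyp8b1, with -3.16 and 0.0414, and the carboxylesterase gene Ces2a, with -2.55 and 0.00924, were lower. With the mean over probe sets or without the variance trend 1 of the 3 passed, where 0.178% and 0.307% of all genes did. Fits with 1 array left out kept 1 residual degree of freedom, too few to decide these calls.

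**Figure D5:**
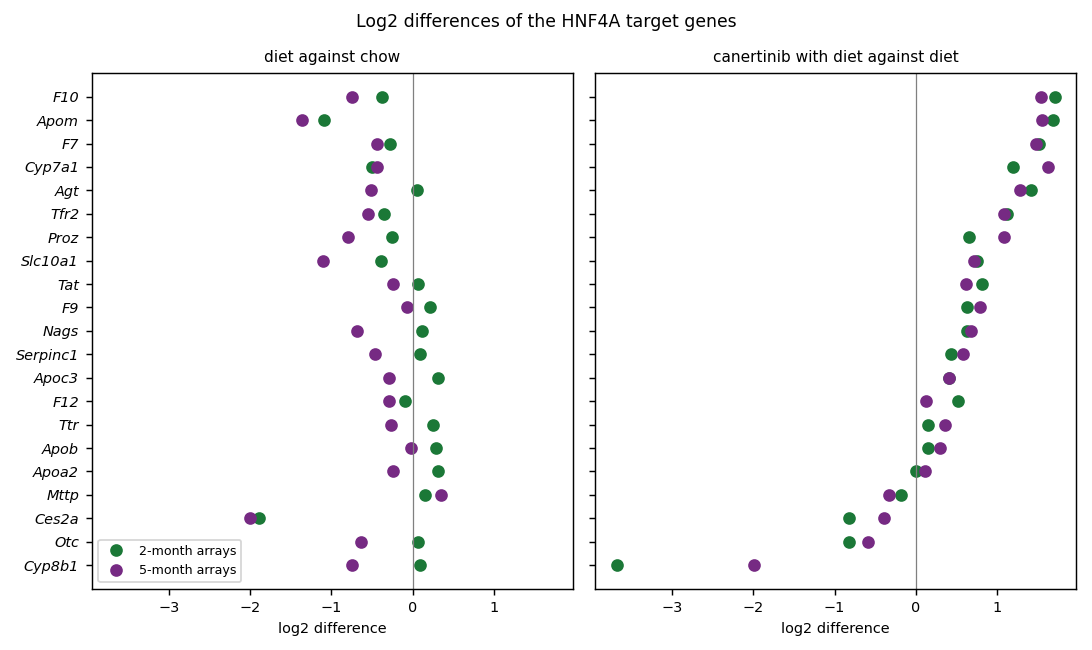
Log2 difference (x axis, the same in both panels) of each of the 21 measured HNF4A target genes (y axis, ordered by the mean drug difference), for diet against chow on the left and canertinib with diet against diet on the right, with 1 circle per study, green for 2 months and purple for 5 months. With canertinib 17 of 21 circles at each time lie to the right of 0, and Cyp8b1 lies lowest at -3.68 and -1.99.

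Targets of FOXA proteins and CEBPA, 14 measured of 16 listed, had medians of 0.22 and 0.47 with canertinib on the diet. Higher were 11 and then 12 of the 14, beside 46.3% and 45.3% of measured genes. Ttr and Tat are also in the HNF4A target list. In limma 1 of the 14 passed, beside 0.715% of measured genes. At least 2-fold higher was 1 gene at each time, beside 3.55% and 2.19%. This was Igfbp1, a growth factor binding protein of the fasting liver. It had signals of 2891, 5029 and 59873 on chow, diet and diet with canertinib at 2 months, then 1301, 5014 and 28615 at 5 months. Limma gave 3.04 ± 0.30 (SE) with an adjusted p of 0.0274. That call was lost with the mean over probe sets, without the variance trend and without the study term, where 0.0499%, 0.186% and 0.600% of all genes passed. The hepcidin gene Hamp was at least 2-fold lower at 2 months, with -4.72, beside 3.26% of measured genes, and had 0.01 at 5 months. Its 5-month signals were 39497 on chow, 9881 on the diet and 9956 with canertinib, so the drug-treated array differed from chow by -1.99. The urea cycle gene Arg1 had 0.95 and 0.67, and the tyrosine aminotransferase gene Tat 0.82 and 0.62.

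Hepatocyte markers, 13 measured, were all higher with canertinib than on the diet in both studies, beside 46.3% and 45.3% of measured genes, with medians of 0.34 and 0.47, led by Fgb with 1.36 and 1.47, Ahsg with 0.79 and 0.99, Cps1 with 0.59 and 0.58, and Uox with 0.55 and 0.47. After quantile normalization both medians were 0.00 and Uox turned to -0.056 at 5 months. That setting gives every array the same set of values, which limits differences among the brightest genes, as most of these markers are. It therefore cannot show whether hepatocyte content differed, which was not tested. None of the 13 passed in limma, and 2 had an unadjusted p under 0.05, beside 14.8% of measured genes. Of these markers Alb, Ttr, Cps1, Ass1 and Tdo2 are also in the FOXA and CEBPA target list. Hnf4a with canertinib on the diet was 0.56 and 0.89 after quantile normalization, and Foxa3 0.95 and 1.21.

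Fetal and progenitor genes, 10 measured of 12 listed, showed no common course. With canertinib on the diet 6 of 10 were higher at 2 months and 5 of 10 at 5 months, beside 46.3% and 45.3% of measured genes. Their medians were 0.18 and -0.02, and none of the 10 passed in limma, beside 0.715% of measured genes. Sox4, a factor of progenitor cells, had signals of 261 on chow, 309 on the diet and below the floor with canertinib at 2 months, then 328, 989 and 318 at 5 months. The 5-month diet array was thus far above the others. Epcam had drug differences of 0.97 and 0.71, Igf2 had -0.77 and -0.03, and the alpha-fetoprotein gene Afp was above the floor on the canertinib arrays only, at 262 and 347.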

How the data were processed

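The deposited intensity values are MAS5 signals on a linear scale, 1 per probe set and array, per the submitters' processing notes. The release of that software: not given in the sources used here. On every array the mean without the lowest and highest 2% was 500.002. Of 45101 probe sets, 34958 had 1 gene symbol in the platform annotation, 932 had several and 9211 none, and only the first were used. Per gene the probe set with the highest mean over the 6 arrays was taken, and signals under the floor, 221.4, were raised to it before log2. Differences of at least 2-fold were counted, and limma 3.58.1 (R 4.3.3) fitted treatment and study with a variance trend, with Benjamini-Hochberg adjustment over 13989 measured genes. The fit was tested on simulated data. For each list, the text names the 4 genes with the largest mean drug difference from the diet and those limma called, and for 5 members the 3 genes of nearest course. The number of arrays limits the precision, and nothing says that a pool was repeated. Alternatives changed normalization, centring, floor, probe set rule, fold, gene filter, variance trend, study term and each array in turn. Promoter windows were taken from RefSeq tables of build GRCm38.p6. Members and lists were chosen with earlier results of these data known. Some listed genes were not analysed here.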

Additional observations from a re-analysis of the deposited data

Results flagged for a closer look

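Among the 9 members and the genes named from the wider factor, target, hepatocyte and fetal lists, 4 gene and comparison pairs were singled out in which the 2 studies gave differences of opposite sign, each beyond the chow-pair SD of 0.40 and at least 1 log2 unit apart. The difference between the studies was not tested. Hhex with canertinib on the diet against the diet was -0.74 at 2 months and 0.69 at 5 months, 1.43 apart. Nr2f2, a nuclear receptor gene also expressed in mesenchymal and endothelial cells, was -0.64 and 0.67 for canertinib on the diet against chow, 1.31 apart, but with the mean over probe sets its 5-month value was -0.055. Igf2, the fetal growth factor gene, was -0.67 and at least 0.89 for the same comparison, 1.56 apart, and its 5-month chow signal was below the floor. Epcam, a marker of bile duct and progenitor cells, was 1.29 and -0.54 for that comparison, so the 5-month value minus the 2-month value was -1.83.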

How the results depend on the processing

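Of 444 values of counts and list medians recomputed under the alternatives, 357 stayed within 0.10 log2 units or 1.5 times the count and 87 moved. Of 180 list medians 8 turned sign, and of 270 member differences 7 did, the largest of them 0.20 in the main setting, Onecut1 against chow at 5 months, which was -0.26 with the mean over probe sets. The causes were not tested. The limma fit takes the study as a block that pairs the arrays of each study, and without the study term it called 0 members in all 3 comparisons. At 1.5-fold, members lower on the diet at 2 months were 1, with canertinib against the diet at 2 months 2 were higher and 2 lower, against chow 2 were lower at 2 months, and 1 was higher and 1 lower at 5 months. With the floor at the 60th percentile, members at least 2-fold lower were 1 on the 5-month diet and 0 with canertinib on the diet at 2 months. With the mean over probe sets 1 was lower on the 5-month diet, 1 was higher with canertinib on the diet at 5 months, and the member median against chow at 5 months was -0.26. Among genes above the floor on all 6 arrays, limma called 2 members and 8 HNF4A targets for canertinib on the diet, beside 3.89%. For the diet it called 2 HNF4A and 2 FOXA and CEBPA targets, beside 1.36% of those genes. For canertinib against chow it called 3 wider factors, 8 HNF4A targets and 3 FOXA and CEBPA targets, beside 4.07%.

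Fits with any 1 array left out kept 1 residual degree of freedom, too few to decide which HNF4A or FOXA and CEBPA targets pass. Canertinib on the diet gave 0 HNF4A targets with the mean over probe sets and without the variance trend, and 7 after quantile normalization. Of all genes those fits called 0.0499%, 0.186% and 1.02%. The same comparison gave 0 FOXA and CEBPA targets with the mean over probe sets, without the variance trend and without the study term, the last beside 0.600% of all genes. Against chow the mean over probe sets left 1 HNF4A target and 0 FOXA and CEBPA targets, beside 0.178% of all genes. The fit without the trend left 1 HNF4A target, beside 0.307%. At an unadjusted p under 0.05, members, wider factors, HNF4A targets and FOXA and CEBPA targets numbered 2, 3, 8 and 2 for the diet, 3, 7, 14 and 6 for canertinib on the diet, and 1, 6, 11 and 6 against chow. Of all measured genes 9.87%, 14.8% and 15.6% were under that limma p in the 3 comparisons.

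Quantile normalization moved the hepatocyte marker medians to 0.015 and -0.093 on the diet, 0.00 and 0.00 with canertinib on the diet, and 0.059 and -0.067 against chow, at 2 and 5 months. HNF4A target medians became -0.11 on the 2-month diet, 0.35 with canertinib on the diet at 5 months and 0.34 against chow at 2 months. FOXA and CEBPA target medians became -0.16 and -0.22 on the diet, 0.11 with canertinib on the diet at 5 months, and 0.0014 and -0.23 against chow. With canertinib on the diet at 5 months that last list also had 0.36 with the floor at the 60th percentile and 0.29 with the mean over probe sets, which gave 0.14 against chow at 2 months. Fetal gene medians at the 60th percentile floor were 0.058 on the 5-month diet, 0.00 with canertinib on the diet at 2 months, and 0.095 and 0.00 against chow. They were 0.27 against chow at 5 months at the 40th percentile floor, and 0.068 with canertinib on the diet and 0.078 against chow at 2 months with the mean over probe sets. Signals near the floor, as for Foxa1, Onecut1 and Prox1, are the least precise.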
